A study of Mus musculus with 6 samples.

Results

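The cytosolic ribosomal protein genes encode the proteins that, with ribosomal RNA, form the small and the large subunit of the ribosome in the cytoplasm. They were taken from the gene counts by symbol, as protein-coding genes named Rpl or Rps with a number (and, where present, a closing a, x, l, al or l1), together with Rplp0, Rplp1, Rplp2 and Rpsa. Of 38355 genes listed, 82 were members, 51 of the large and 31 of the small subunit. Another 4 symbols fitting the rule are annotated as pseudogenes and were left out. Rpl24 was not analysed here, and Fau and Rps3a1 lie outside the naming rule.

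The RNA came from whole cortical hemispheres of wild-type C57BL/6 mice, an inbred strain without a transgene, with 3 mice of 6 months and 3 mice of 16 months. The housing notes put the younger mice at 3 months, but titles, characteristics and the study all state 6 months, and 6 months was used. The comparison asked which genes differ in level between adult and aged cortex.

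Every cell needs about equal numbers of most ribosomal proteins, and surplus copies that do not enter a ribosome are degraded. Many of the mRNAs begin with a run of pyrimidines (C or T in the gene), the terminal oligopyrimidine tract, through which the mTOR pathway and the protein Larp1 set their translation and stability. Neurons carry the mRNAs into axons and dendrites as well as the cell body. These mRNAs have been copied back into the genome many times, which left processed pseudogenes, and only reads that align at 1 place were counted here.

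Total counts on genes ran from 29797253 to 46519280 per sample, and a level is given as CPM, the count relative to the library total after TMM scaling between samples. Genes of cortical excitatory neurons were all detected, with Slc17a7 at 976 CPM at 6 months. The deviation of 16 months replicate 1 from the mean of its age followed GC content across genes with r = 0.588, and that of 16 months replicate 2 with r = -0.582, while the other samples lay between -0.130 and 0.160. Because whole tissue was sequenced, fewer cells of a type and less RNA per cell cannot be told apart.

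The counts on ribosomal protein genes were lower at 16 months, by a small amount in most genes. The counts assigned to Rpl3 alone fell by 1.45 on the log2 scale, and by 0.37 once they were summed with those of its near-identical genes. In the samples of 6 months the members took 0.412%, 0.415% and 0.407% of all gene counts. In the samples of 16 months they took 0.359%, 0.344% and 0.347%. All samples of 16 months lay below all samples of 6 months. The mean went from 0.411% ± 0.00382 to 0.350% ± 0.00822 (SD, n = 3 each), a change of -14.9%, with p = 0.1 in a two-sided exact permutation test, the smallest p that 3 against 3 samples allow. Without Rpl3 the share changed by -14.8%. The change was about as large without that gene.

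**Figure D1:**
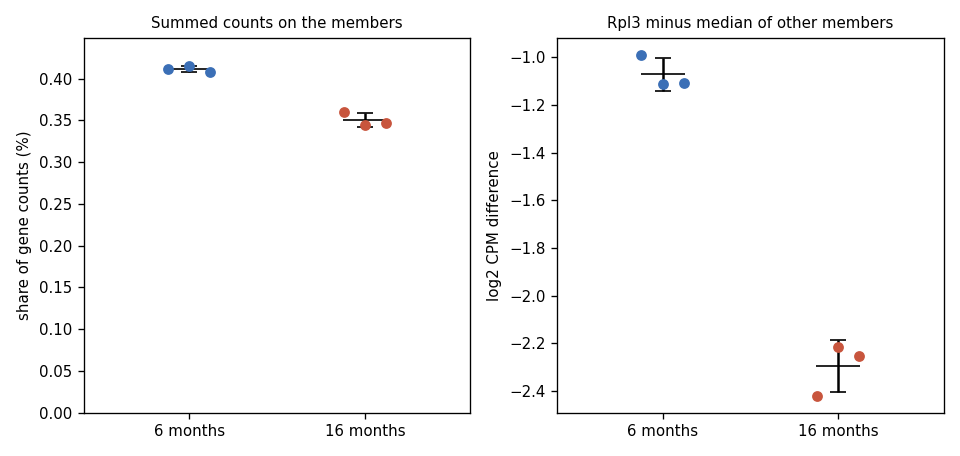
The left panel plots the percent of gene counts on all members in each sample, and the right panel the log2 CPM of Rpl3 minus the median log2 CPM of the other members. Points are samples, the long bar is the mean and the whisker 1 SD (n = 3 per age). On the left the samples of 16 months sit between 0.344% and 0.359%, all below 6 months, and on the right the mean difference moved from -1.07 to -2.30.

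A total of 80 members passed the filter on low counts and were tested with edgeR's quasi-likelihood test, adjusted with the Benjamini-Hochberg method over 17120 genes. The adjusted p was under 0.05 and the level lower for 10 members, which is 12.5% of those tested, where 0.888% of all genes tested were called lower and 1.67% were called in either direction. In edgeR 0 members were called higher, against 0.783% of all genes. In that direction 0 members had an unadjusted p under 0.05, and DESeq2 called 0. Of the members with a lower value, 38 had an unadjusted p under 0.05. The fitted log2 fold change was below 0 for 73 members, and its median was -0.19, beside 0.0014 over all genes tested. All samples of 16 months lay below all samples of 6 months for 38 members (47.5%, against 11.5% of all genes). The number called rested on single libraries. It was 1, Rpl3, without 6 months replicate 1, 2 or 3 or 16 months replicate 3, and 25 and 29 without 16 months replicates 1 and 2, which are the samples that differ by GC content. In these last fits 2.79% and 6.40% of all genes were called lower, and in those with 1 call between 0.133% and 0.179%. After GC content and length were adjusted for with offsets it was 27, where 6.72% of all genes were called lower, and the median was -0.14.

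**Figure D2:**
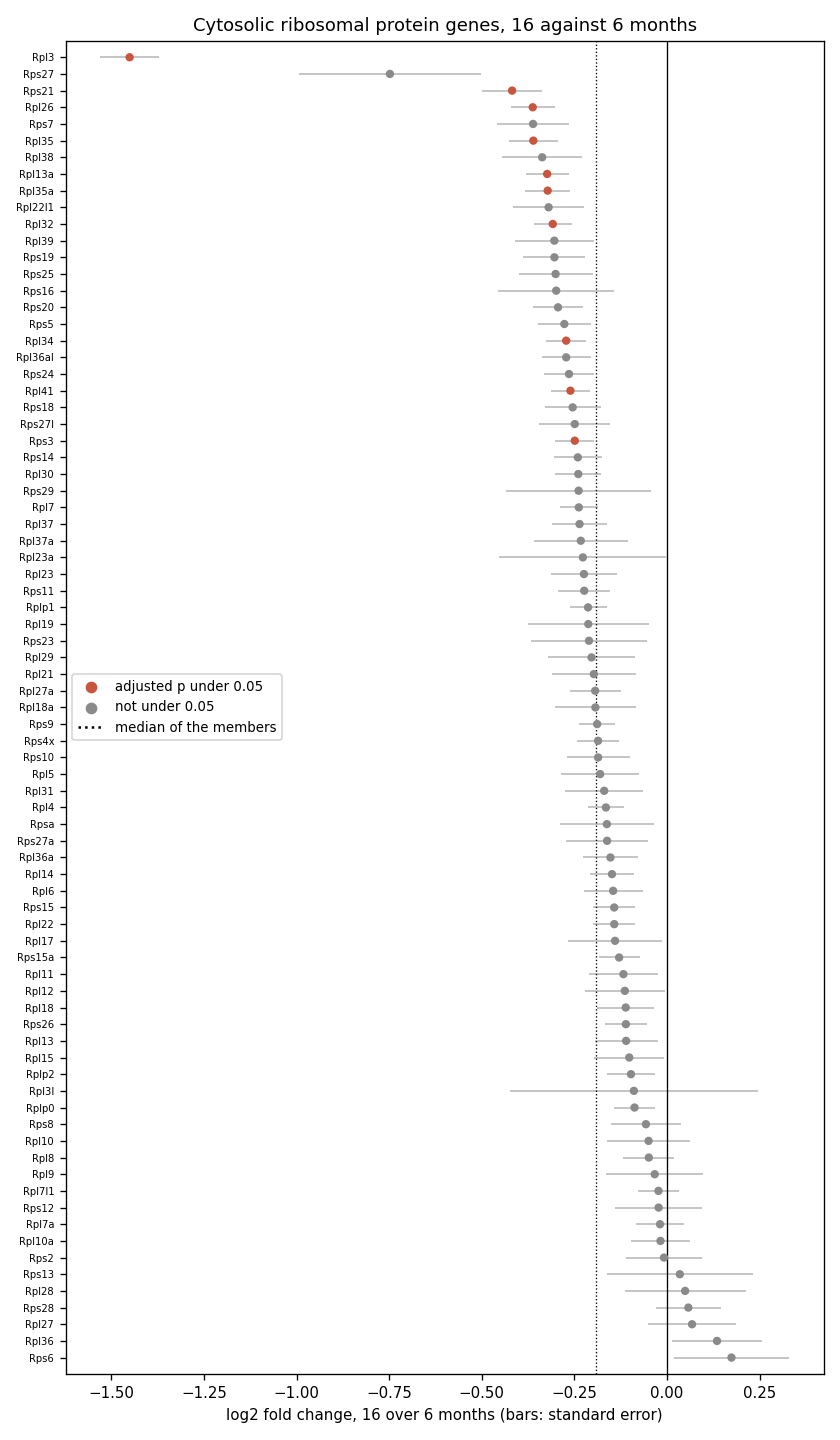
The plot gives the log2 fold change of 16 over 6 months for 79 of the 80 members tested, ordered from the most negative to the most positive, with bars of 1 standard error and called members in red. Rpl3 lies at -1.45, far from the rest, and the dotted line marks the median of -0.19.

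Of the large subunit, 42 members were tested when the P-stalk and the paralogs are set aside. Their median log2 fold change was -0.19, with 39 below 0 and 17 without overlap and lower at 16 months (11.5% of all genes). In edgeR 8 were called lower (0.888% of all genes) and 0 higher (0.783%), with 0 at an unadjusted p under 0.05 in the higher direction. DESeq2 called 9 lower, where it called 1.27% of all genes lower. Rpl26, which lies near the exit of the tunnel through which the new chain leaves, was at 42.6, 38.2 and 41.3 CPM at 6 months and 32.2, 31.4 and 31.5 CPM at 16 months. All 3 samples of 16 months were below all of 6 months, and it fell by 0.36 on the log2 scale (SE 0.0593, adjusted p = 0.0188). Rpl35, also near the tunnel exit, was at 11.3, 11.5 and 11.7 CPM at 6 months and 9.17, 8.87 and 8.87 CPM at 16 months, without overlap. It fell by 0.36 (SE 0.0666, adjusted p = 0.0276). Of the main transcripts of Rpl26 and Rpl35, 83.3% and 99.9% are near-identical to other genes. Which parts of these transcripts the counted reads came from was not tested, so the counts remain uncertain.

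Rpl13a, which besides its place in the ribosome takes part in silencing inflammatory mRNAs, was at 320.1, 321 and 324 CPM at 6 months and 276, 242 and 253 CPM at 16 months. The ages were apart and it fell by 0.32 (SE 0.0579, adjusted p = 0.0256). Rpl35a, mutated in some patients with Diamond-Blackfan anaemia, went from a mean of 34.6 ± 1.13 to 27.6 ± 1.35 CPM (SD, n = 3), a fall of 0.32 on the log2 scale (adjusted p = 0.0287). Rpl32 went from 92.6 ± 2.14 to 74.8 ± 2.54 CPM, a fall of 0.31 (adjusted p = 0.0204). Rpl34 and Rpl41, the latter the shortest ribosomal protein, fell by 0.27 and 0.26 (adjusted p = 0.0377 and 0.0418). The samples of the 2 ages did not overlap for any of these genes.

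The 30 members of the small subunit had a median of -0.20, with 26 below 0. Without overlap and lower at 16 months were 17 (11.5% of all genes). In edgeR 2 were called lower (0.888% of all genes) and 0 higher (0.783%), with 0 at an unadjusted p under 0.05 in the higher direction. DESeq2 called 8 lower, where it called 1.27% of all genes lower. Rps21 was at 150.5, 135 and 125 CPM at 6 months and 112, 98.3 and 97.2 CPM at 16 months. All samples of 16 months lay below all of 6 months, and it fell by 0.42 (SE 0.0804, adjusted p = 0.0325). Rps3, which sits at the entry of the mRNA and also takes part in DNA repair, was at 321, 337 and 315 CPM and then at 282, 273 and 264 CPM. It fell by 0.25 (SE 0.0523, adjusted p = 0.0479), the highest adjusted p among the called members. The largest negative value after Rpl3 was that of Rps27, at -0.75, but it rested on 25, 15 and 21 counts against 11, 9 and 10, and its adjusted p was 0.181. Rps7, at -0.36, had an adjusted p of 0.0977 in edgeR and of 0.0306 in DESeq2, where it was called.

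The 7 members above 0 all had a mean under 10 CPM. Rps6, the ribosomal protein that S6 kinase phosphorylates, had a log2 fold change of 0.17 (adjusted p = 0.613), Rpl36 had 0.14, Rpl27 0.07 and Rps28 0.06, and the 2 ages of these 4 genes overlapped.

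The 3 proteins of the P-stalk, which recruits the elongation factors, were at -0.21 (Rplp1), -0.10 (Rplp2) and -0.09 (Rplp0), and none was called by edgeR, with 1 unadjusted p under 0.05 and 1 call by DESeq2 (Rplp1). Per kilobase of annotated exon, Rplp1 had the highest level of all members, at 336 CPM per kilobase over the 6 samples, followed by Rps15 at 234, Rpl4 at 217, Rpl8 at 159 and Rps21 at 148. Only uniquely aligned reads enter these levels, so they are not directly comparable between members. Over 80 members, Spearman's rho was -0.33 between the level and the percent of the transcript near-identical to other genes. The log2 fold changes of Rps15, Rpl4 and Rpl8 were -0.14, -0.16 and -0.05, with adjusted p of 0.227, 0.125 and 0.761. The levels of Rps15, Rpl4 and Rplp1 did not overlap between the ages, while those of Rpl8 did.

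Some ribosomal proteins have a second, related gene, and some of these genes are used mainly in certain tissues. Of the 5 such paralogs tested, all had a value below 0. In the main edgeR fit and by DESeq2 0 were called, while 3 had an unadjusted p under 0.05. Rpl22l1 was called by edgeR without the filter (adjusted p = 0.0268), and with GC and length offsets both Rpl22l1 (0.0128) and Rpl36al (0.0138) were called. With the replicate block edgeR called Rpl22l1 (0.0106). Without 16 months replicate 1 it called Rpl36al (0.0298), and without 16 months replicate 2 both Rpl22l1 (0.00837) and Rpl36al (0.0392). Of all genes, 1.29% were called lower without the filter, 6.72% with the offsets and 2.34% with the block. Without 16 months replicates 1 and 2 the shares were 2.79% and 6.40%. Rpl22l1 was at -0.32 (adjusted p = 0.133) and its parent gene Rpl22 at -0.14 (adjusted p = 0.229). Rpl36al was at -0.27 and Rpl36a at -0.15, Rps27l at -0.25 and Rps27 at -0.75, and Rpl7l1 at -0.02 beside -0.24 for Rpl7. Rpl3l, the copy known from heart and skeletal muscle, had between 8 and 22 counts per sample and a value of -0.09 with an SE of 0.334. Rpl39l had 0 to 4 counts per sample and Rpl10l, known from testis, had 0 in each, so neither passed the filter.

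Rpl3 is a core protein of the large subunit that reaches toward the peptidyl transferase centre. In the counts assigned to it alone, it stood apart from the other members. Its counts were 547, 346 and 464 at 6 months and 130, 133 and 149 at 16 months. As levels these were 11.7, 11.5 and 11.1 CPM against 3.92, 4.24 and 4.36 CPM. The 2 ages were far apart beside a spread of 0.319 and 0.228 CPM (SD). Rpl3 fell by 1.45 on the log2 scale (SE 0.0793, adjusted p = 3.36e-05), a change of -63.4%, and ranked 3 by p among all genes tested. It was called in every alternative fit of Rpl3 alone. Its log2 CPM minus the median of the other members went from -1.07 ± 0.0691 to -2.30 ± 0.108 (SD, n = 3), a difference of -1.22 given as a description. Per 1000 counts on members, Rpl3 took 2.80 at 6 months and 1.18 at 16 months.

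The Rpl3 gene lies at chr15:80077791-80091868 on the minus strand (GRCm38). Of its main transcript, 89.8% is near-identical to other genes, at 97% identity over at least 100 bases, in 6 processed pseudogenes. The closest is Rpl3-ps1, at chrX:13202571-13203780 on the plus strand, which matches over 1210 bases with 99.8% identity. The pair differs at 2 positions, C137A and T866C, counted from the first base of the Rpl3 transcript, with the Rpl3 base first. Both lie in the coding sequence. The first 60 coding bases are shown because they hold the first of these differences, in capitals.
Rpl3: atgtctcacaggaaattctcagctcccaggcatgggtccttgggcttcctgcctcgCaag
Rpl3-ps1: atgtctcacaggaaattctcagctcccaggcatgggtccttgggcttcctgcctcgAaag

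Counts on the pseudogene moved the other way. Rpl3-ps1 had 305, 247 and 316 counts at 6 months and 321, 312 and 383 at 16 months, or 6.51, 8.23 and 7.53 CPM against 9.68, 9.95 and 11.2 CPM. All samples of 16 months were above all of 6 months, and the level rose by 0.48 on the log2 scale (SE 0.101, adjusted p = 0.0469). When the counts of Rpl3 were summed with those of the 4 near-identical genes that have counts, the sums were 863, 602 and 796 at 6 months and 462, 456 and 541 at 16 months. The sum fell by 0.37 (SE 0.071, adjusted p = 0.0319), a change of -22.7%, so that the size of the Rpl3 difference depended on whether these genes were counted apart or together. The summed value lay between those of Rps21 (-0.42) and Rpl26 (-0.36), which were not summed with other genes, and so no longer stood apart. Of the other members, 4 had pseudogenes with at least 30 counts in every sample, and for all 4 the pseudogene sum was lower at 16 months, by log2 ratios from -0.46 (Rpl13a) to -0.10 (Rps24). Whether the pseudogene counts come from the pseudogene or from Rpl3 was not tested. Rpl3 also overlaps Syngr1 on the opposite strand by 535 bases, and Syngr1 had a log2 fold change of 0.05 (adjusted p = 0.749).

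**Figure D3:**
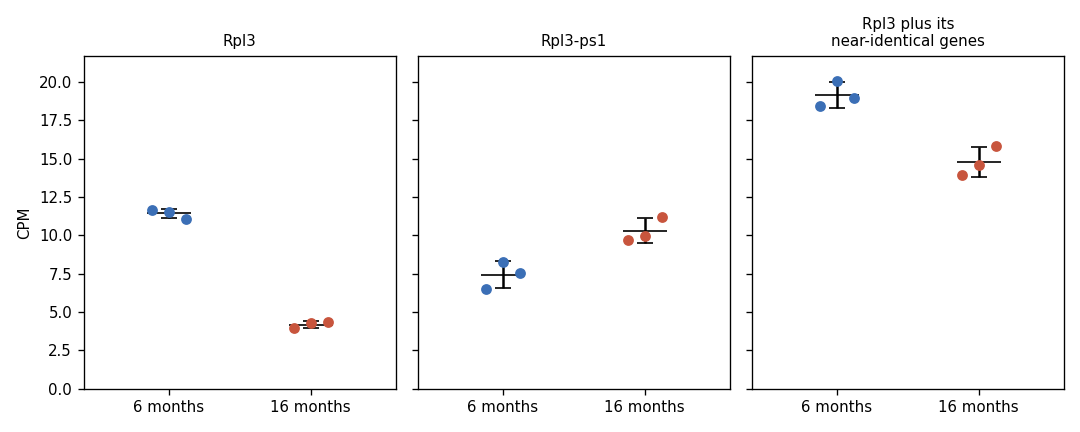
Levels in CPM of Rpl3, of its pseudogene Rpl3-ps1, and of Rpl3 summed with its near-identical genes are plotted by sample, with the mean (long bar) and SD (whisker), n = 3 per age. Rpl3 went from 11.4 to 4.18 CPM, Rpl3-ps1 from 7.42 to 10.3 CPM, and the sum from 19.2 to 14.8 CPM.

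Because many members share sequence with other genes, the members were also divided by how much. Of the 80 tested, 72 shared some part of their main transcript, and the median member shared 68.7%. The 13 members with under 20% shared were all below 0, with a median of -0.24. Of these, 3 were called lower (Rps21, Rpl32 and Rps3), where 0.888% of all genes were. The 39 members with 20% to 80% had a median of -0.20, and the 28 with 80% or more had -0.15, with 4 of them above 0. The 8 members that shared nothing were all below 0. Of them, 7 were lower at 16 months without overlap, where 11.5% of all genes were. Across the 80 members, Spearman's rho was 0.21 between the share and the log2 fold change, 0.05 with GC content and -0.28 with the level per kilobase, given as a description of genes from the same libraries.

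**Figure D4:**
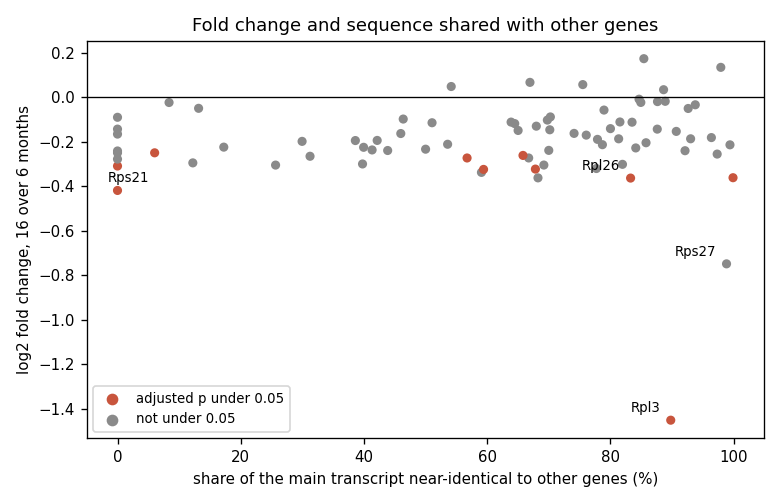
Each point is 1 of 79 members, with the percent of its main transcript near-identical to other genes on the x axis and its log2 fold change of 16 over 6 months on the y axis, called members in red. The 13 members with under 20% shared all lie below 0, while the widest values, Rpl3 at -1.45 and Rps27 at -0.75, lie among those sharing most.

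RefSeq start windows (GRCm38.p6, 250 bases before to 50 after the start) were matched for 62 of the 82 members. CTTTCC, typical of oligopyrimidine starts, occurred on the strand of the gene in 41.9% of these members and in 16.0% of 27025 genes, and on the other strand in 17.7% and 16.1%. CCGGAAG, the core known for ETS factors, occurred in 25.8% against 5.39% on the strand of the gene and in 16.1% against 5.39% on the other. AAGATGG, the core known for YY1, occurred in 8.06% against 4.17% and in 8.06% against 3.26%. CCGGAAG and AAGATGG can overlap in the letters AAG. A run of at least 8 C or T, reaching the bases from 20 before to 50 after the start, was found in 80.6% of the members and in 31.1% of all genes. The stretches below show the longest run reaching those bases, of any length, in capitals, for the 8 called members with a window. For contrast they also show Rps6 and Rpl27, the members with a window whose log2 fold changes were highest.
Rps21 (chr2:180257399-180257428, plus strand): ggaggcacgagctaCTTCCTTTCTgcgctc
Rpl26 (chr11:68901579-68901608, plus strand): gcgtgtagTTCTCTTTCCTTTTgcggccat
Rpl35 (chr2:39005115-39005144, minus strand): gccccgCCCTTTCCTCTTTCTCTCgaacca
Rpl13a (chr7:45128722-45128751, minus strand): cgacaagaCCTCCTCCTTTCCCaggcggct
Rpl35a (chr16:33056468-33056497, plus strand): cggggcttgCCTTCCTCTTTCCgccatctt
Rpl34 (chr3:130730330-130730359, minus strand): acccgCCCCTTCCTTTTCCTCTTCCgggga
Rpl41 (chr10:128549119-128549148, minus strand): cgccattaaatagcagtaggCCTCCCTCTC
Rps3 (chr7:99483674-99483703, minus strand): cgcggcgtcattgCTCCCgccctatatacc
Rps6 (chr4:86857349-86857378, minus strand): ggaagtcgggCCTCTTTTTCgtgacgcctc
Rpl27 (chr11:101442225-101442254, plus strand): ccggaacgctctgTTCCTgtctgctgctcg
The run of Rpl41 reaches the end of its window. Counted from the start used, the stretches of Rps21, Rpl26, Rpl35a, Rpl41 and Rps3 begin at bases 21, 14, 16, 21 and 7. The runs shown there lie after the start and need not be the terminal oligopyrimidine tract. The run was 10 bases or longer in 7 of the 8 called members and 5 bases in Rps3. It was 10 bases in Rps6 and 5 in Rpl27, so its length did not separate these members.

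Of 260 further genes of translation, ribosome assembly, growth control, decay and the p53 pathway in 9 lists, edgeR called 1, where it called 1.67% of all genes, and DESeq2 called 4, where it called 2.67%. With GC and length offsets 28 were called, where 13.9% of all genes were, and without 16 months replicates 1 and 2 the counts were 7 and 30, where 5.73% and 12.7% were. Without 6 months replicates 1, 2 and 3 the count was 0, where 0.318%, 0.328% and 0.277% of all genes were called. Their median log2 fold change was -0.0034. The gene called by edgeR was Cdkn1a (p21, an inhibitor of the cell cycle and target of p53), which rose by 0.41 (adjusted p = 0.00584). Its list, of 11 genes of the p53 pathway, had a median of -0.02, with 5 above 0 and 6 below. Of the 11, DESeq2 called 3, and 4 had an unadjusted p under 0.05 in edgeR. The 77 mitochondrial ribosomal proteins had a median log2 fold change of -0.03, with 0 called by edgeR or DESeq2 and 10 at an unadjusted p under 0.05. Of the 77, 47 were below 0 and 30 above. Without overlap between the ages, 16 were lower at 16 months (11.5% of all genes) and 2 were higher. Their summed level was 1953 to 1983 CPM at 6 months and 1905 to 1920 CPM at 16 months. The 21 other mRNAs known for an oligopyrimidine start had -0.06, with 0 called by either tool and 3 at an unadjusted p under 0.05. Elongation and termination factors (15 genes) had a median of 0.02, initiation factors (37) 0.01, ribosome biogenesis factors (63) -0.01, chaperones of ribosomal proteins (15) 0.00, growth control of translation (20) 0.04 and decay factors (15) 0.01.

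**Figure D5:**
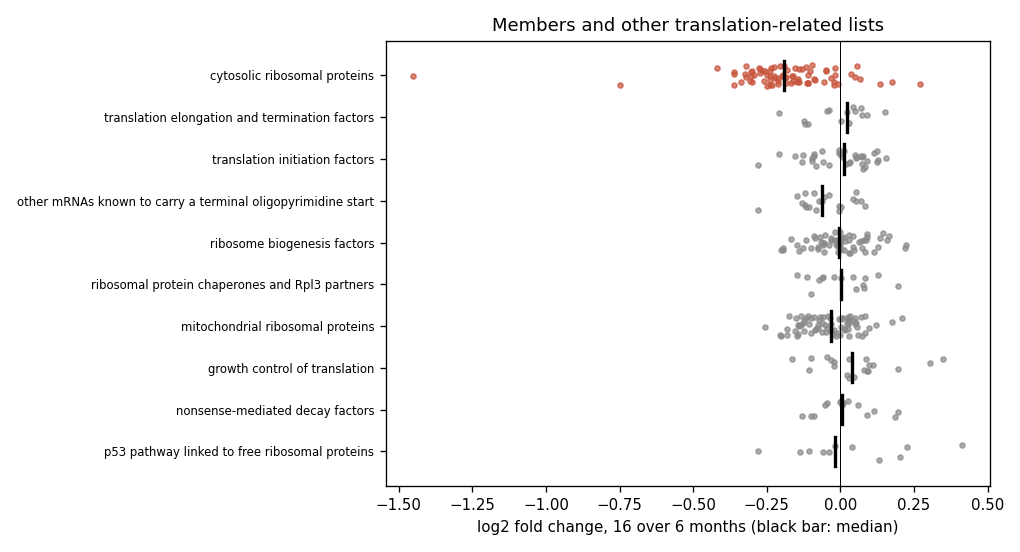
Each point is a tested gene, placed by its log2 fold change of 16 over 6 months, in rows for the cytosolic ribosomal proteins (red) and for 9 other lists (grey), with a black bar at the median. The ribosomal proteins have a median of -0.19, while the other lists lie between -0.06 and 0.04.

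Markers of other tissues and cells also differed between the ages. The 5 blood genes were all higher at 16 months, with a summed level of 44.9 to 50.3 CPM against 27.3 to 30.8 CPM, and 2 were called. Choroid plexus genes summed to 28.0 to 32.0 CPM against 19.6 to 20.5 CPM, with Ttr called higher and 2 of the 6 tested below 0. Endothelial and pericyte markers went the other way, with 210 to 220 CPM at 16 months against 227 to 232 CPM at 6 months. Of these 7 markers 5 were below 0 and 2 above, with 0 called by edgeR or DESeq2 and 2 at an unadjusted p under 0.05. Of 7 markers each, 4 of thalamus, 3 of hippocampus and 1 of striatum (Penk) were called higher, and in each list 1 gene was below 0. The summed level of thalamus markers overlapped between the ages, at 210.5 to 219 CPM and 218 to 250 CPM. Hippocampus markers summed to 248 to 249.9 CPM and then 282 to 298 CPM, and striatum markers to 569 to 583 CPM and then 611 to 636 CPM. Of 8 astrocyte markers 5 were above 0 and Gfap was called lower, and the summed level was 5546 to 5891 CPM and then 5938 to 6691 CPM. Pvalb was called lower among 7 inhibitory neuron markers, of which 4 were above 0, and Aif1 among 8 microglia markers, of which 4 were above 0. No marker listed was at 0 in every sample. The part of these differences in the ribosomal protein result was not tested.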

How the data were processed

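Polyadenylated RNA of whole cortical hemispheres was sequenced by the authors as paired reads from an Illumina TruSeq library. According to the study, STAR aligned the trimmed reads to mm10 and HTSeq counted them per gene. The submitters' processing notes instead list CASAVA 1.8.2, STAR 2.3.0e and featureCounts 1.5.0-p1, and the deposited files end with summary lines in the HTSeq form. The deposited values are raw counts per gene, 1 whole number per gene and sample, and only uniquely aligned reads were counted. The Ensembl release and strand setting are not given in the sources used here.

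Identifiers were matched to GENCODE M21 (GRCm38) for 36602 of 38355 genes. The main test used edgeR 4.0.16 under R 4.3.3 (TMM, filterByExpr, quasi-likelihood test, Benjamini-Hochberg adjustment at 0.05), with a prior count of 2 for log2 CPM. Shared sequence was searched with blastn 2.17.0 against the main transcript of each member, and figures were drawn with matplotlib 3.10.9. Tested on simulated counts of 17120 genes with 200 changed, the fit recovered 91% of changes of 1 and 73% of changes of 0.5 (log2), and 4.09% of its calls were false. These counts had the same dispersion for every gene and no GC difference between samples, unlike the data. The change of 0.5 is larger than that of every called member except Rpl3. The rates therefore do not hold for changes as small as those of the other called members. With 3 mice per age the exact permutation test cannot go below p = 0.1. The reads carry no molecular identifiers. The counts hold variation between samples as well as counting error, and the fit estimated a biological coefficient of variation of 6.4%.

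Genes were named by rule: Rpl3, called members, the 5 highest and 5 lowest log2 fold changes, the 5 highest levels per kilobase, paralogs beside their parents, members not passing the filter, called genes of the other lists, and genes near-identical to Rpl3. A gene that this rule names is not reported here. The members, lists and rule were chosen with earlier results of these data known. The division at 20% and 80% shared, the choice of main transcript, the minimum of 30 pseudogene counts and the start motifs were chosen after seeing the data. Alternatives were DESeq2 size factors, DESeq2 1.42.0, no filter, the replicate block, offsets for GC content and length (20 bins), and each sample left out.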

Additional observations from a re-analysis of the deposited data

How the results depend on the processing

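The 10 members called (0.888% of all genes called lower) became 18 with DESeq2's Wald test (1.27%), 20 without the filter on low counts (1.29%), 27 with GC and length offsets (6.72%), 32 with these offsets and the replicate block (8.59%), 1 to 29 when each sample was left out (0.133% to 6.40%), and 3 among the 13 members with under 20% of the transcript shared (added after seeing the data). The median log2 fold change moved to -0.14 with the offsets, to -0.14 with offsets and block, and to -0.24 for the members with under 20% shared, and lay between -0.20 and -0.17 when each sample was left out. Of the 260 other translation genes, 4 were called with DESeq2's test (2.67% of all genes called in either direction) and 4 without the filter (2.35%). With offsets 28 were called (13.9%), with offsets and block 43 (18.3%), and with samples left out 0 to 30 (0.277% to 12.7%). Rpl3 stayed called in every alternative. It lay between -1.48 and -1.41 with samples left out, and at -0.37 when summed with its near-identical genes. Single genes were followed for Rpl3 and 25 other named members, and leaving out 1 sample turned the sign of 5 of these, none of them called, with ranges of -0.052 to 0.126 for Rpl27, -0.43 to 0.15 for Rpl3l, -0.058 to 0.012 for Rpl7l1, -0.125 to 0.0097 for Rpl8 and -0.016 to 0.28 for Rps6. The cause of these changes was not tested.

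Both ages carry replicate numbers 1 to 3. With the replicate block 25 members were called lower and 0 higher, where 2.34% of all genes were called lower. In that fit 7 other translation genes were called, where 4.57% of all genes were called in either direction. Same-numbered samples correlated in their deviations with r = 0.180, 0.0958 and 0.0351, so the numbers were not taken as pairs. Not every sample correlated best with its own number, since 16 months replicate 3 did so with 6 months replicate 2 (r = 0.0379).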
